A study of Mus musculus with 10 samples.

Results

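The lysosome digests what a microglial cell takes up, and the RNA of 54 genes of its digestive machinery was compared between the microglia of DKO mice, labelled as knockouts of Bhlhe40 and Bhlhe41, and of wild-type (WT) mice. The genes were taken from a list of symbols, of 53697 genes in the files. No measured value entered the rule, but the list was chosen with earlier results of these data known. Of the 54 genes, 36 encode hydrolases, their cofactors and lysosomal membrane proteins and 18 encode the vacuolar ATPase. The cathepsins, a further family of lysosomal proteases, were kept apart. With edgeR at an adjusted p under 0.05, no tested member was called higher in DKO microglia (4.34% of all genes tested were) and 1 of 52 was called lower (1.85% of all genes). DESeq2 called 4 members higher (7.7% of all genes) and limma voom 3 (6.24%). For 36 of the 52 the 95% interval of the difference lay within 1.5-fold in either direction, as it did for 5638 of all 13916 genes tested.

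Female, untreated mice gave the microglia, which are the brain's own macrophages, and were either Bhlhe40-/-Bhlhe41-/- (DKO) or WT, the latter given as C57BL/6J or Rosa26Stop-YFP animals without saying which library is which. Libraries are named by genotype and labelled replicate (WT 1 to WT 5, DKO 1 to DKO 5). In DKO animals the knockout is carried by the whole animal and not by microglia alone. Ages are stated as at least 2 and 6 months and are not assigned to libraries, and the labels do not tell whether each library comes from its own animal, so the spread behind each p-value is that between libraries. The sort kept living CD11b+ CD45.2+ cells without Ly6C, Ly6G, MHCII or CD38.

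Lysosomal hydrolases are made in the endoplasmic reticulum, carried to the lysosome largely by mannose 6-phosphate tags, and work at acid pH, each removing a particular sugar, sulfate, lipid or peptide. The vacuolar ATPase supplies the acid: its cytosolic V1 sector splits ATP and turns a rotor that drives protons through the V0 sector in the membrane. Many lysosomal genes carry E-boxes near their start sites, short sites bound by TFEB, TFE3 and MITF, and Bhlhe40 and Bhlhe41, which repress transcription, bind E-boxes too. Microglia depend on this system to break down myelin, lipoproteins and cell debris, and loss of single hydrolases causes lysosomal storage diseases that affect the brain.

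The E-box sequence CACGTG, which reads the same on both strands, was found in the promoter window (250 bases before to 50 after the start) of 14 of the 44 members that have a window in the RefSeq table for GRCm38.p6. That is 31.82% of these members, against 8.09% of all 27025 genes with a window. The longer form TCACGTGA, which contains the first, was in 6 members (13.64%), against 1.12% of genes: Atp6v0d1, Atp6v0e, Atp6v1a, Cln3, Gla and Mcoln1. The 8 others with CACGTG were Arsa, Atp6v0b, Gaa, Glb1, Lamp1, Lgmn, Naglu and Sgsh. The sites of Naglu, Mcoln1 and Sgsh are shown because their RNA is described in detail, that of Atp6v1a as an example from the ATPase, and the 100 bases before the Lamp1 start because they hold 4 copies, with each CACGTG in capitals and each sequence 5′ to 3′ on the strand of its gene.
Naglu (chr11:101070011-101070036, +): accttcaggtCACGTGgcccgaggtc
Mcoln1, upstream (chr8:3500438-3500463, +): tcgcgcttgtCACGTGttcagttcag
Mcoln1, downstream (chr8:3500464-3500489, +): gcgccccgctCACGTGaccgcggcgc
Sgsh (chr11:119355524-119355549, -): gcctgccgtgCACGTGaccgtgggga
Atp6v1a (chr16:44139375-44139400, -): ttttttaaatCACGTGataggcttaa
Lamp1 (chr8:13159061-13159160, +): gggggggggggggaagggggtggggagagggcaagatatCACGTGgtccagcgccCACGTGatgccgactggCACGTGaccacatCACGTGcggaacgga
From the RefSeq start site, the motif is centred 70 bases upstream in Naglu, 68 and 42 in Mcoln1, 26 in Sgsh and 128 in Atp6v1a. GENCODE M21 places the earliest start of Naglu, Mcoln1, Sgsh and Atp6v1a farther upstream, so that the motifs of Naglu and Atp6v1a and the downstream motif of Mcoln1 lie inside the annotated gene and that of Sgsh spans its first base, while the upstream motif of Mcoln1 and those of Lamp1 lie before it. None of the 14 members passed as higher or lower in DKO microglia with edgeR. At an unadjusted p under 0.05, 3 were higher (21.4%, against 13.3% of all genes tested) and 0 lower (against 10%). DESeq2 called none and limma voom called Mcoln1 higher. The median log2 fold change of the 14 was 0.10, against 0.08 for the 29 tested members whose window lacks CACGTG. A match of these letters is a description and does not show that a factor binds there.

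The libraries held 22483044 to 26109107 estimated counts, and levels are given as CPM, counts scaled to a common total, after TMM scaling. WT 1, WT 5 and DKO 3 held more mitochondrial counts (1.75%, 1.54% and 1.58%) than the other 7 libraries (0.986% to 1.16%), and the small noncoding gene Gm23935 held 2.85% to 6.6% of TPM in WT 1, WT 2, WT 4 and WT 5, 20.3% in WT 3 and 23.2% to 26.6% in the DKO group. The targeted gene Bhlhe40 had 4 to 28 counts in WT libraries and 1 to 8 in DKO libraries, and the estimated transcript length of Bhlhe41 was 5878 to 6133 bases in WT and 1851 to 2719 bases in DKO. The level of Bhlhe41 was not lower in the knockout, with 31 to 47 CPM in WT and 40.6 to 60.5 CPM in DKO libraries. The 10 microglia markers summed to 82707 to 91602 CPM in WT and 77804 to 93980.0 CPM in DKO libraries, with 1 called lower, P2ry12 (-0.50, edgeR adjusted p = 0.0301). Of 10 lists for other cells, the summed level did not overlap between genotypes in 3, each of which held a called gene and members at or near 0: endothelial and mural cells (41.5 to 64.3 in WT, 11.6 to 18.8 in DKO, mostly Pecam1), T and NK cells (24.8 to 47.9 in WT, 9.95 to 18.4 in DKO, mostly Il7r, with Cd3g and Nkg7 at 0) and monocytes (15.3 to 19.6 in WT, 26.7 to 35.8 in DKO, mostly Ly6a and Cd44). Their part in the results below was not tested. In bulk RNA, fewer cells of a type and less RNA per cell cannot be told apart.

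Of the 54 members, 52 passed the count filter. Log2 fold changes, DKO over WT, are given below with their standard error (SE). With edgeR at an adjusted p under 0.05, 0 were higher in DKO microglia, where 4.34% of all 13916 genes tested were higher, and 1 was lower (Tcirg1), where 1.85% of all genes were lower. At an unadjusted p under 0.05, 9 were higher (17.3%, against 13.3% of all genes) and 4 lower (7.69%, against 10% of all genes), and DESeq2 called 4 higher and limma voom 3 higher, each with Tcirg1 alone as lower (4.01% and 2.08% of all genes). Sets 1 to 3 and 4 to 5 are a split of the libraries by replicate number, and the labels name no batch. With a term for these sets, edgeR called 5 higher, Gusb, Hgsnat, Ids, Psap and Sgsh (6.15% of all genes), and 1 lower, Tcirg1 (4.13%). The CPM of WT and DKO libraries did not overlap for 2 members, Naglu and Hgsnat, or 3.85%, where 7.62% of all genes did not overlap. The median log2 fold change was 0.07 over the members and -0.01 over all genes tested.

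The hydrolases and membrane proteins and the ATPase did not lie alike. Of the 35 tested hydrolases and membrane proteins, 26 had a positive log2 fold change and their median was 0.14, while 11 of 17 tested ATPase subunits had a negative value and their median was -0.09. Of all genes tested, 48.7% had a positive value. The sign of the first median turned negative (-0.22) on the TPM scale, where the median of all genes shifted to -0.26 with 1 added and to -0.35 with 0.1 added, and was positive again (0.075) once TPM were rescaled without Gm23935. The median of the ATPase was negative under every scaling tried. Without WT 1 and WT 5, the medians lay nearer 0, at 0.07 for the hydrolases and membrane proteins and -0.04 for the ATPase. These are counts and medians of genes that share the same libraries, and no test was made over them.

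**Figure D1:**
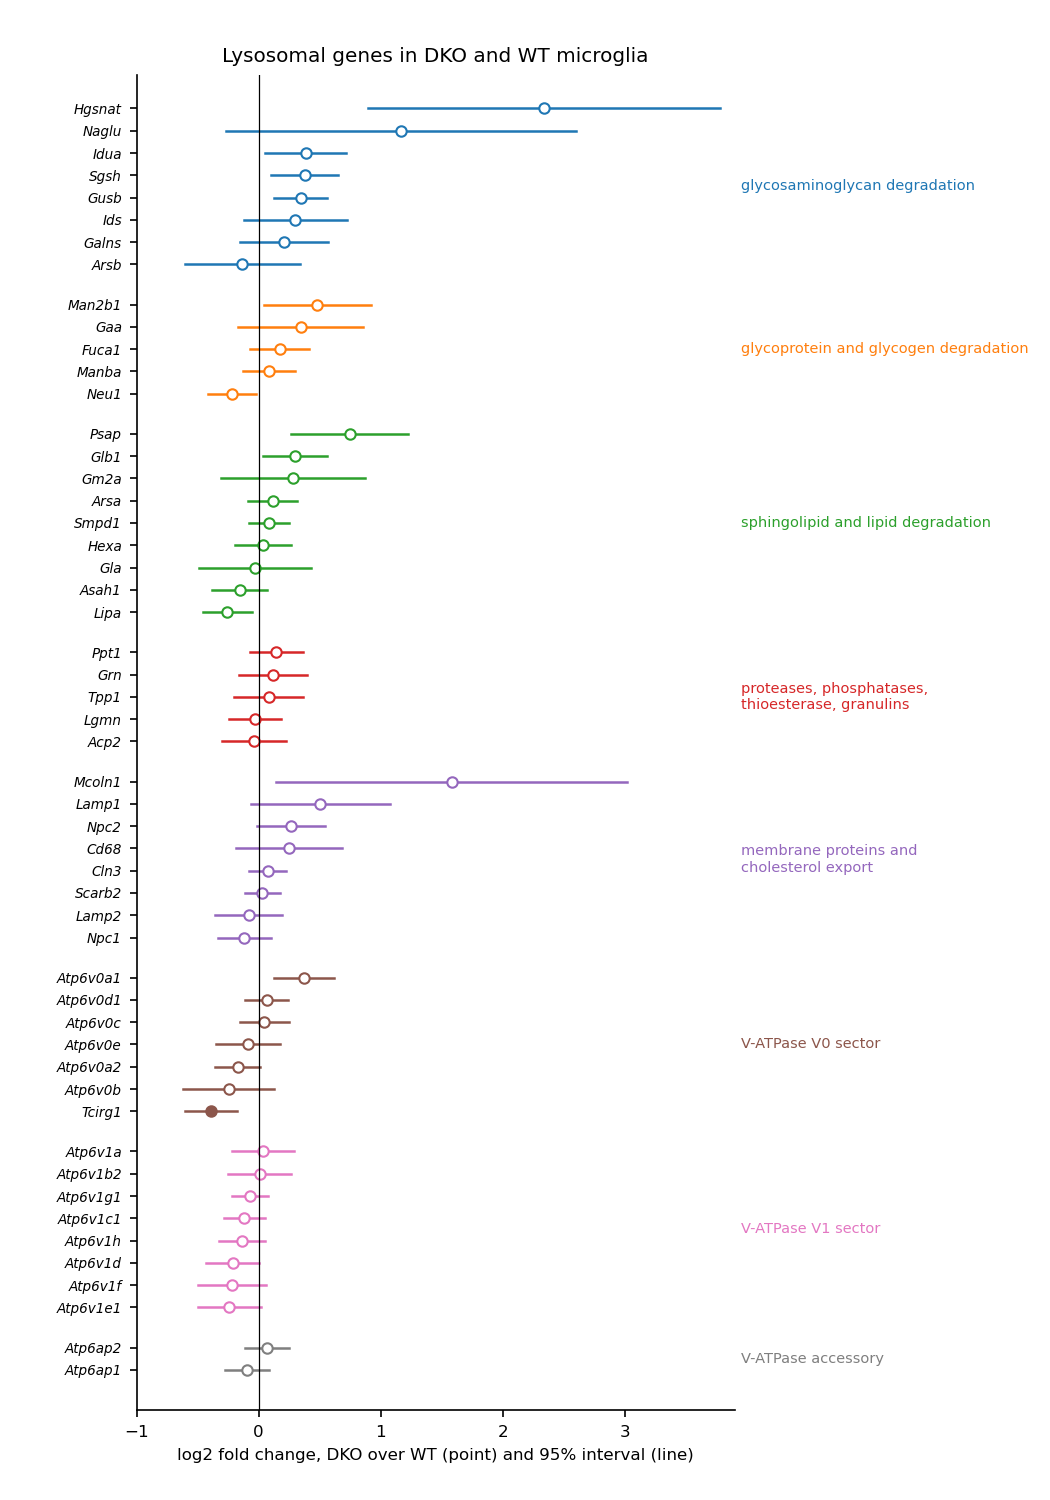
Log2 fold change of DKO over WT for the 52 tested members (points) with the 95% interval of the edgeR fit (lines), grouped by role, with a filled point for the member at an adjusted p under 0.05. The filled point is Tcirg1 (-0.39), and Hgsnat, Mcoln1 and Naglu have the widest intervals.

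Enzymes that take apart glycosaminoglycans, the long sulfated sugar chains of the cell surface and matrix, had the highest median of the role groups (0.36, 7 of 8 positive). None passed with edgeR, and at an unadjusted p under 0.05, 4 were higher and 0 lower (13.3% and 10% of all genes tested). DESeq2 called 2 higher and limma voom 1 (7.7% and 6.24% of all genes). The counts of the role groups below stand against the same shares. Gusb, the beta-glucuronidase, had the highest level per transcript length of the group, 260.4 ± 14.5 CPM per kilobase (SD, n = 5) in WT and 326 ± 39.8 (SD, n = 5) in DKO. Its values were 487, 524, 511, 562 and 519.9 CPM in WT 1 to WT 5 and 622, 616, 554, 755 and 757 CPM in DKO 1 to DKO 5. All DKO libraries but DKO 3 lay above the highest WT library, and the difference did not pass (edgeR log2 fold change 0.34 ± 0.10 SE, adjusted p = 0.0651). DKO 4 and DKO 5 stood above the other DKO libraries, as the libraries numbered 4 and 5 did in several members, and with a term for the sets 1 to 3 and 4 to 5 Gusb passed (0.33, adjusted p = 0.0169).

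Breakdown of heparan sulfate, a glycosaminoglycan that accumulates in the brain in Sanfilippo syndrome, needs among other enzymes a sulfamidase (Sgsh), an acetyltransferase in the lysosomal membrane (Hgsnat) and an N-acetylglucosaminidase (Naglu), and loss of any of them causes a type of that disease. These 3 members were described in full after their values were seen, as were Mcoln1 and the a subunits of the ATPase. Naglu was read at 25, 306, 385, 213 and 23.4 CPM in WT 1 to WT 5 and 419, 398, 388, 471 and 456 CPM in DKO 1 to DKO 5. WT 1 and WT 5 lay far below the other WT libraries, the DKO libraries lay close together, and no WT library reached the lowest DKO library, though WT 3 lay just below it. The difference did not pass (edgeR log2 fold change 1.16 ± 0.65 SE, adjusted p = 0.311, 95% interval -0.27 to 2.6) and was 0.50 without WT 1 and WT 5 (adjusted p = 0.157).

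Hgsnat, on chromosome 8, 25944453 to 25976753, minus strand of GRCm38, was read at 7.75, 16.3, 84.9, 13 and 6.21 CPM in WT 1 to WT 5 and 141, 157, 89.3, 94.6 and 165 CPM in DKO 1 to DKO 5. WT 3 lay just under the lowest DKO library and the other 4 WT libraries lay far below, so the WT values spread 13.7-fold and the DKO values 1.85-fold. Its log2 fold change was the largest of all members and did not pass (edgeR log2 fold change 2.34 ± 0.66 SE, adjusted p = 0.0595, 95% interval 0.90 to 3.78). Hgsnat passed as higher under 11 of 30 alternative settings, among them DESeq2 (2.33, adjusted p = 0.0129) and limma voom (3.04, adjusted p = 0.00637). Without WT 3 it reached 3.58 (edgeR adjusted p = 6.6e-05). It did not pass when any other single library was left out (edgeR adjusted p = 0.0758 to 0.125). Without WT 1 and WT 5 it was 1.76 (edgeR adjusted p = 0.139).

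Sgsh varied much less. It was read at 38.9, 46.1, 45.1, 34.5 and 31.9 CPM in WT 1 to WT 5 and 56.1, 54.8, 51.9, 49.5 and 43.2 CPM in DKO 1 to DKO 5. DKO 5 alone lay within the WT range (edgeR log2 fold change 0.38 ± 0.12 SE, adjusted p = 0.0983). Within libraries 1 to 3 and within libraries 4 to 5 the DKO values lay above the WT values, and with the term for these sets Sgsh passed (0.39, adjusted p = 0.0182).

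**Figure D2:**
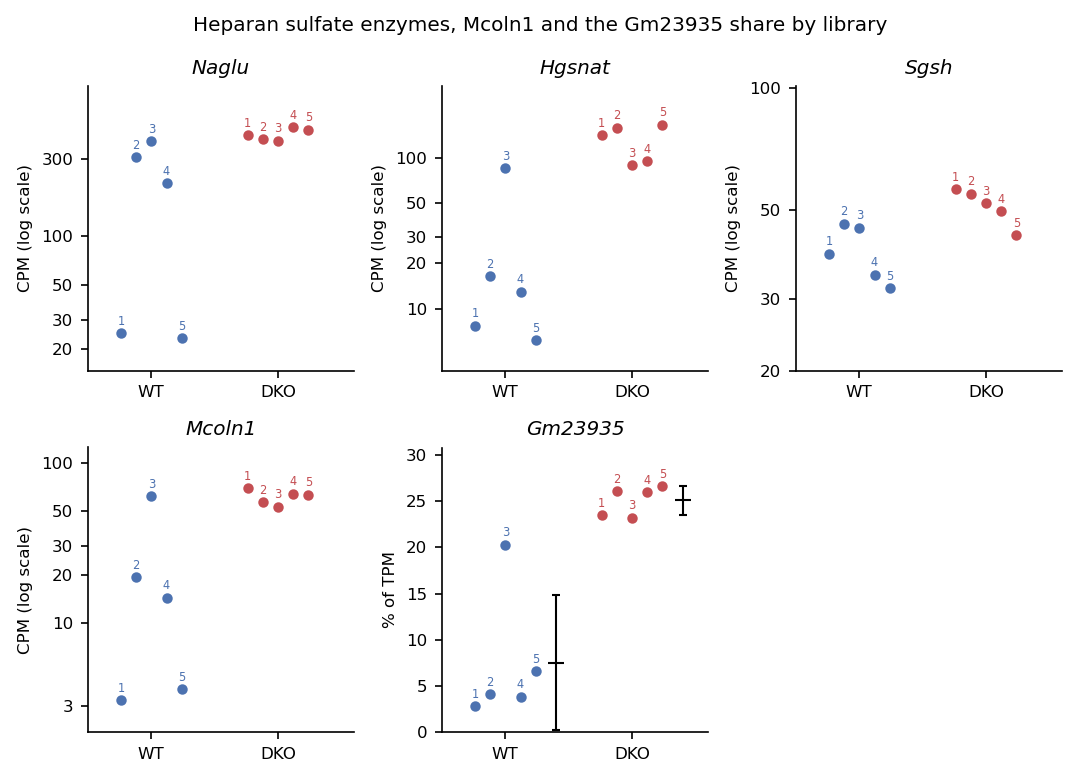
CPM of Naglu, Hgsnat, Sgsh and Mcoln1 on log scales and the share of TPM taken by Gm23935, with 1 point per library numbered by replicate and, for Gm23935, the mean and SD. WT 3 lies with the DKO libraries for Naglu, Hgsnat, Mcoln1 and Gm23935, and WT 1 and WT 5 lie lowest for the first 3.

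The other glycosaminoglycan enzymes did not pass with genotype as the only term. Idua, the alpha-iduronidase, stood at 144 ± 33.7 CPM (SD, n = 5) in WT against 188 ± 19.5 CPM (SD, n = 5) in DKO microglia, with the 95% interval of its log2 fold change at 0.05 to 0.72 (edgeR adjusted p = 0.157). Ids, the iduronate sulfatase (50.3 to 85.5 CPM in WT and 62.8 to 103 CPM in DKO), overlapped between the genotypes over all libraries but not within libraries 1 to 3 or within libraries 4 to 5, where the DKO values were the higher ones, and it passed with the term for these sets (0.30, adjusted p = 0.0254) and not without it (0.30, edgeR adjusted p = 0.371). Galns, a sulfatase of keratan and chondroitin sulfate (15.3 to 27 CPM in WT and 20.9 to 28.6 CPM in DKO), overlapped. Arsb, a sulfatase of dermatan sulfate, was the only member of the group with a negative value (-0.13). Its DKO values split by number, with 282, 318 and 254 CPM in DKO 1 to DKO 3 and 459 and 446 CPM in DKO 4 and DKO 5.

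Mcoln1 encodes mucolipin 1, the calcium channel of the lysosomal membrane that is mutated in mucolipidosis type IV, and lies on chromosome 8, 3500457 to 3515232, plus strand. It was read at 3.28, 19.3, 62, 14.4 and 3.84 CPM in WT 1 to WT 5 and 69.5, 56.9, 53.3, 64.1 and 63.4 CPM in DKO 1 to DKO 5. WT 3 lay inside the DKO range, WT 2 and WT 4 lay well below it, and WT 1 and WT 5 lay lowest. The WT values spread 18.9-fold and the DKO values 1.3-fold (edgeR log2 fold change 1.58 ± 0.66 SE, adjusted p = 0.175, 95% interval 0.15 to 3.02). Without WT 3, Mcoln1 passed (2.6, edgeR adjusted p = 0.00499). It did not pass when any other single library was left out (edgeR adjusted p = 0.213 to 0.288). Without WT 1 and WT 5 its log2 fold change was 0.945 (edgeR adjusted p = 0.258).

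Naglu, Hgsnat and Mcoln1 were the only 3 of 52 tested members in which the highest WT library exceeded the lowest by over 5-fold, and no member spread that far among DKO libraries. Among all genes tested, 9.36% spread over 5-fold in WT and 4.99% in DKO libraries. The order of the WT libraries in Hgsnat and Mcoln1, with WT 3 highest and WT 1 and WT 5 lowest, was that of Naglu too. WT 3 was also the WT library with the DKO-like share of Gm23935, and WT 1 and WT 5 those with the high mitochondrial share. Their part in the spread was not tested.

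Enzymes of glycoproteins and glycogen gave a median of 0.17, with 4 of 5 positive and none past the threshold with edgeR (1 higher and 1 lower at an unadjusted p under 0.05, 0 with DESeq2 and 0 with limma voom). Man2b1, the alpha-mannosidase, had the highest level per length, 458 ± 115 CPM per kilobase (SD, n = 5) in WT and 628 ± 117 (SD, n = 5) in DKO. Its libraries held 978, 1581, 1559, 1429 and 854 CPM in WT 1 to WT 5 and 2039, 2031, 1191, 1904 and 1768 CPM in DKO 1 to DKO 5. All DKO libraries but DKO 3 lay above every WT library (edgeR log2 fold change 0.48 ± 0.20 SE, adjusted p = 0.176). Gaa, the acid alpha-glucosidase of glycogen, was lowest in the same libraries, from 144 CPM in WT 5 to 335 in WT 2 and from 214 in DKO 3 to 382 in DKO 1. Fuca1, the fucosidase (0.17), and Manba, the beta-mannosidase (0.09), were near 0 with standard errors of 0.11 and 0.10. Neu1, the lysosomal sialidase, had the only negative value, -0.21 (95% interval -0.41 to -0.02, edgeR adjusted p = 0.178), with 100.4 to 127 CPM in WT and 87.7 to 105 CPM in DKO.

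Among the 9 genes of sphingolipid and lipid breakdown, none passed with edgeR (2 were higher and 1 lower at an unadjusted p under 0.05, and DESeq2 and limma voom each called Psap higher). Psap encodes prosaposin, which is cut into the saposins that present sphingolipids to their hydrolases, and had the highest level per length of the group, 1765 ± 576 CPM per kilobase (SD, n = 5) in WT and 2928 ± 447 (SD, n = 5) in DKO. Its values were 2754, 4493, 4861, 3444 and 2086 CPM in WT 1 to WT 5 and 6710.2, 6616, 4373, 5983 and 5864 CPM in DKO 1 to DKO 5. Only DKO 3 lay within the WT range, below WT 2 and WT 3 (edgeR log2 fold change 0.74 ± 0.22 SE, adjusted p = 0.0661, 95% interval 0.27 to 1.22). Psap passed under 6 of 30 alternative settings, with DESeq2 (0.73, adjusted p = 0.0193), limma voom and without WT 3 among them. It did not pass when any other single library was left out (edgeR adjusted p = 0.0548 to 0.154). Without WT 1 and WT 5 it was 0.469 (edgeR adjusted p = 0.163). Without the 3 libraries of high mitochondrial share, a setting chosen after seeing the data, it was 0.56 (edgeR adjusted p = 0.0486).

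Gm2a, the GM2 activator, held the same libraries lowest, at 205, 406, 412, 412 and 156 CPM in WT 1 to WT 5 and 429, 415, 263, 429 and 395 CPM in DKO 1 to DKO 5, and its mean difference was small for that spread (edgeR log2 fold change 0.28 ± 0.27 SE, adjusted p = 0.564). Hexa, the alpha subunit of the hexosaminidase that uses this activator, was at 2172 ± 148 CPM (SD, n = 5) in WT against 2229 ± 306 CPM (SD, n = 5) in DKO microglia with a log2 fold change of 0.04 (95% interval -0.19 to 0.27). Glb1, the beta-galactosidase, had 0.29 (95% interval 0.03 to 0.56). Arsa, the arylsulfatase lost in metachromatic leukodystrophy, had 0.12, and Smpd1, the acid sphingomyelinase, 0.09. Asah1, the acid ceramidase (-0.15), and Lipa, the acid lipase that frees cholesterol from its esters (-0.26, 95% interval -0.46 to -0.06, edgeR adjusted p = 0.121), lay on the other side of 0. Gla, the alpha-galactosidase, was low at 4.47 to 8.39 CPM in WT and 4.95 to 7.7 CPM in DKO.

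The proteases, phosphatases and related genes held small differences, from -0.04 to 0.14, and all 5 tested genes had intervals within 1.5-fold. Lgmn, the asparagine endopeptidase legumain, had the highest level per length of the 54 members, 3809 ± 259.6 CPM per kilobase (SD, n = 5) in WT and 3700.2 ± 398 (SD, n = 5) in DKO. Legumain RNA stood at 5909, 5949, 5666, 6726 and 6491 CPM in WT 1 to WT 5 and 5292, 5533, 5815, 6836 and 6599 CPM in DKO 1 to DKO 5. The genotypes overlapped, and libraries 4 and 5 held the highest values in each (edgeR log2 fold change -0.03 ± 0.10 SE, adjusted p = 0.871, 95% interval -0.24 to 0.18). Grn, the precursor of the granulins, had 2134 ± 322 CPM per kilobase (SD, n = 5) in WT and 2278 ± 284 (SD, n = 5) in DKO, and its log2 fold change was 0.12 (95% interval -0.16 to 0.40). Tpp1, a tripeptidyl peptidase (0.08), Ppt1, the palmitoyl-protein thioesterase (0.14), and Acp2, an acid phosphatase (-0.04), completed the group. Acp5, the tartrate-resistant phosphatase of osteoclasts, had 1 to 12 counts per library and was too low to test.

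Of the 8 membrane proteins and cholesterol exporters, 6 had a positive value and none passed with edgeR (at an unadjusted p under 0.05, Mcoln1 was higher, DESeq2 called none and limma voom called Mcoln1). Cd68, a heavily glycosylated macrophage protein of the lysosomal membrane, had the highest level per length, 1374 ± 405 CPM per kilobase (SD, n = 5) in WT and 1622 ± 208 (SD, n = 5) in DKO. Its values were 809, 1419, 1304, 1641 and 836 CPM in WT 1 to WT 5 and 1580.1, 1424, 1105, 1598 and 1435 CPM in DKO 1 to DKO 5. WT 1 and WT 5 lay below all other libraries and the rest overlapped (edgeR log2 fold change 0.25 ± 0.20 SE, adjusted p = 0.476). Lamp1 and Lamp2, the main glycoproteins of that membrane, differed in level: Lamp2 stood at 471 ± 62.8 CPM per kilobase (SD, n = 5) in WT and 441 ± 39.5 (SD, n = 5) in DKO and Lamp1 at 33.3 ± 12.9 CPM per kilobase (SD, n = 5) in WT and 46.8 ± 7.61 (SD, n = 5) in DKO. Lamp1, whose promoter is shown above, was read at 42.1, 70.5, 79.7, 90.1 and 31.8 CPM in WT 1 to WT 5 and 95.4, 106, 65.6, 93.3 and 85.4 CPM in DKO 1 to DKO 5. WT 2 to WT 4 lay within the DKO range and WT 1 and WT 5 below it (edgeR log2 fold change 0.50 ± 0.26 SE, adjusted p = 0.269), while Lamp2 was highest in the libraries where Lamp1 was low, WT 1, WT 5 and DKO 3 (2003, 1844 and 1811 CPM, against 1331 to 1558 CPM in the others).

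The cholesterol exporters gave opposite signs. Npc2, the soluble carrier, had 0.26 (95% interval -0.02 to 0.54, edgeR adjusted p = 0.241) and Npc1, the membrane protein that receives its cholesterol, -0.12 (95% interval -0.33 to 0.10), and neither passed. Scarb2, which carries glucocerebrosidase to the lysosome, was among the steadiest members with 416 ± 17.3 CPM (SD, n = 5) in WT against 425 ± 15.1 CPM (SD, n = 5) in DKO microglia and a log2 fold change of 0.03 (95% interval -0.12 to 0.18). Cln3, the membrane protein lost in juvenile Batten disease, was nearly as even, with 0.07 (95% interval -0.07 to 0.22).

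An order of libraries ran through the hydrolases and membrane proteins. In 18 of 35 tested hydrolases and membrane proteins, WT 1 and WT 5 held the lowest WT values and DKO 3 the lowest DKO value, which is 51.4%, against 11.5% of all genes tested and 1 of 17 ATPase subunits. These were the 3 libraries with the high mitochondrial share, whose part in the order was not tested. The summed CPM of the 36 hydrolases and membrane proteins ran from 23905 to 30338 in WT and 27313 to 34547 in DKO libraries, and without WT 1, WT 5 and DKO 3 it ran from 28967 to 30338 in 3 WT and from 31111 to 34547 in 4 DKO libraries. The ratio of the DKO to the WT mean was 1.15 with all libraries and 1.11 without these 3. Counted over all 54 members, the sum took 2.96% to 3.53% of all counts in WT and 3.24% to 3.97% in DKO libraries.

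By role, the ratio of DKO to WT means was 1.37 for glycosaminoglycan enzymes, 1.3 for enzymes of glycoproteins and glycogen and 1.29 for those of lipids, the last made up largely by Psap. It was 1.03 for the proteases and their group and 1.07 for the membrane proteins. In each of these groups the summed values of the genotypes overlapped. Sums weigh a gene by its level, and Lgmn, Psap, Grn and Hexa have the highest CPM.

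**Figure D3:**
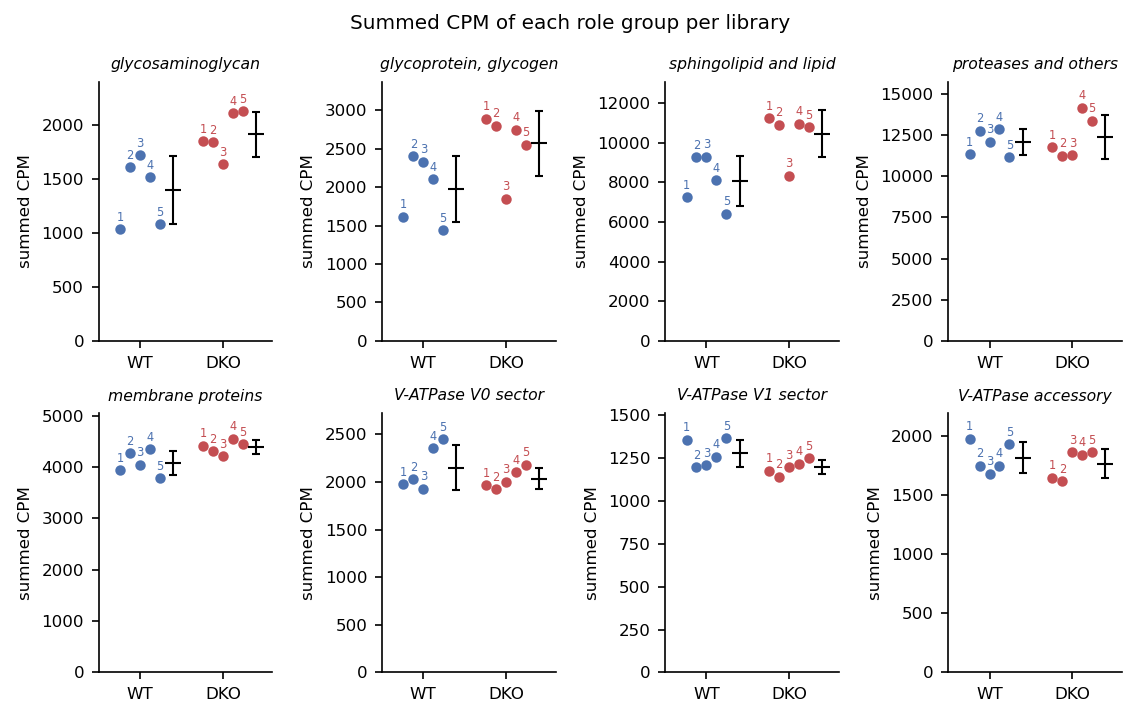
Summed CPM of the members of each of 8 role groups, with 1 point per library numbered by replicate and each genotype's mean and SD. WT and DKO values overlap in every group, and WT 1, WT 5 and DKO 3 lie low in the 3 groups of sugar and lipid breakdown.

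Of the vacuolar ATPase, 1 gene fell (Tcirg1) and the others did not pass with edgeR, while DESeq2 also called Atp6v0a1 higher. All 17 tested genes had intervals within 2-fold and 14 within 1.5-fold, and the summed CPM of the 18 genes was 4818 to 5743 in WT and 4679.9 to 5293 in DKO libraries (ratio of means 0.953). The subunits differed widely in level per length. Atp6v0b (1038 ± 278 CPM per kilobase (SD, n = 5) in WT and 875 ± 106 (SD, n = 5) in DKO) and Atp6v0c (886 ± 102 CPM per kilobase (SD, n = 5) in WT and 911 ± 49.6 (SD, n = 5) in DKO), which form the proton-carrying ring, were highest, and their order is not set beyond the spread. The single-copy d subunit of the ring, Atp6v0d1, was near the bottom with 41 ± 3.16 CPM per kilobase (SD, n = 5) in WT and 41.6 ± 2.28 (SD, n = 5) in DKO. Its osteoclast form, Atp6v0d2, was read in 2 of 10 libraries, with at most 2 counts, and was not tested.

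**Figure D4:**
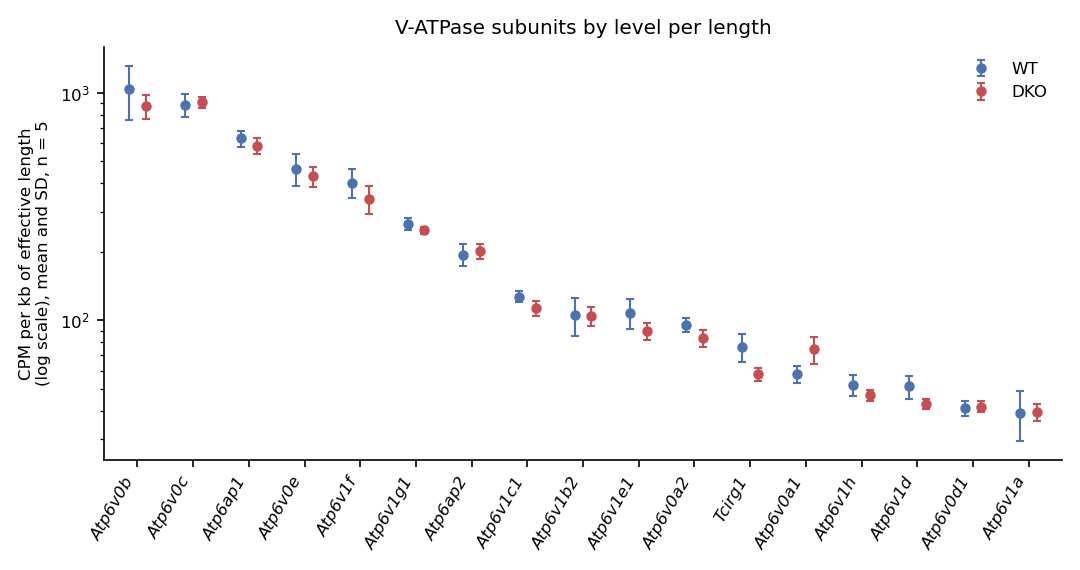
Level of 17 V-ATPase genes in CPM per kilobase of effective length on a log scale, ordered by the mean over all libraries, as mean and SD of 5 WT and 5 DKO libraries. Atp6v0d2, with counts in 2 libraries, is not drawn. Tcirg1 lies above Atp6v0a1 in WT and below it in DKO microglia.

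The a subunit anchors the ATPase in its membrane and has isoforms that place it in different compartments. Tcirg1, on chromosome 19, 3896050 to 3907133, minus strand, encodes the a3 isoform of lysosomes and of the osteoclast's ruffled border, and was the member that fell. It was read at 135, 136, 105, 124 and 146 CPM in WT 1 to WT 5 and 96.9, 89.1, 100.5, 107 and 98.2 CPM in DKO 1 to DKO 5. WT 3 alone lay within the DKO range, and all other WT libraries lay above it (edgeR log2 fold change -0.39 ± 0.10 SE, adjusted p = 0.0391, 95% interval -0.61 to -0.18, or 0.762 times the WT level). The call is near its limit: Tcirg1 had an adjusted p under 0.05 in 15 of 30 alternative settings, and its log2 fold change ran from -0.74 to -0.30 over them. It did not pass when a WT library other than WT 3 or a DKO library other than DKO 4 was left out (edgeR adjusted p = 0.0655 to 0.108), passed without WT 3 or DKO 4 (adjusted p = 0.00705 and 0.0467), and without WT 1 and WT 5 was -0.30 (adjusted p = 0.171).

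Atp6v0a1, the a1 isoform best known from neurons, was read at 127, 173, 162, 162 and 147 CPM in WT 1 to WT 5 and 237, 205, 202, 171 and 181 CPM in DKO 1 to DKO 5. DKO 4 alone lay within the WT range, just below WT 2 (edgeR log2 fold change 0.37 ± 0.11 SE, adjusted p = 0.0758), and DESeq2 called it higher (0.36, adjusted p = 0.0449). Atp6v0a2, the a2 isoform of the Golgi and endosomes, had the highest mean of the 3 per length in each genotype, 95.4 ± 7.07 CPM per kilobase (SD, n = 5) in WT and 83.2 ± 7.09 (SD, n = 5) in DKO, and was read at 303, 314, 340.0, 293 and 344 CPM in WT 1 to WT 5 and 244, 276, 309, 294 and 291 CPM in DKO 1 to DKO 5. Most of the lower values were from DKO libraries, and the ranges overlapped (edgeR log2 fold change -0.17 ± 0.09 SE, adjusted p = 0.249).

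Set against each other within a library, the a isoforms parted the genotypes. The ratio of Atp6v0a1 to Tcirg1 CPM was 0.938, 1.28, 1.55, 1.31 and 1.01 in WT 1 to WT 5 and 2.45, 2.3, 2.01, 1.6 and 1.85 in DKO 1 to DKO 5, with no overlap, DKO 4 and WT 3 lying closest. Of the 3 isoforms summed per length, Atp6v0a1 made up 22.4, 27.1, 26.6, 28 and 22.5% in WT 1 to WT 5 and 41.7, 35.3, 33.5, 29.7 and 32.4% in DKO 1 to DKO 5. Tcirg1 made up 36.3, 34.3, 26.9, 33 and 34.8% in WT and 25.2, 26.1, 26.9, 30.1 and 25.9% in DKO libraries, with WT 3 inside the DKO range. The ratio was chosen after its values were seen, so no test was made on it, and a ratio does not show which isoform differs. Atp6v0a1 lies on chromosome 11, 101009452 to 101063719, plus strand, and Naglu is its downstream neighbour, 6292 bases away on the same strand.

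The remaining V0 genes did not pass. Atp6v0b had -0.24 (95% interval -0.62 to 0.13), with its values highest in libraries 4 and 5 of each genotype (723 and 884 CPM in WT 4 and WT 5, 564 and 634 CPM in DKO 4 and DKO 5). Atp6v0c (0.05), Atp6v0d1 (0.07) and Atp6v0e (-0.09), a small subunit of the sector, had intervals within 1.5-fold. Reads of Atp6v0c could be shared with its processed pseudogenes Atp6v0c-ps1 and Atp6v0c-ps2, which the files list at 0 and 0.0419 CPM.

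In the V1 sector 6 of 8 genes had a negative value and none passed with edgeR (0 higher and 1 lower, Atp6v1d, at an unadjusted p under 0.05, 0 with DESeq2 and 0 with limma voom), and all 8 intervals lay within 1.5-fold. Atp6v1f, a subunit of the central stalk, had the highest level per length, 403 ± 58 CPM per kilobase (SD, n = 5) in WT and 340.3 ± 47.4 (SD, n = 5) in DKO. Its level was 146, 123, 127, 167 and 169 CPM in WT 1 to WT 5 and 111, 121, 108, 147 and 143 CPM in DKO 1 to DKO 5. Libraries 4 and 5 were high in each genotype and the ranges overlapped (edgeR log2 fold change -0.22 ± 0.13 SE, adjusted p = 0.33). The catalytic subunit Atp6v1a (0.04) and its partner in the ATP-splitting head Atp6v1b2 (0.01) were closest to 0. The stalk subunits Atp6v1e1 (-0.24), Atp6v1g1 (-0.07) and Atp6v1d (-0.21), and Atp6v1c1 (-0.12) and Atp6v1h (-0.14), which serve the assembly and regulation of both sectors, were all slightly negative. The 8 genes summed to 1196 to 1364 in WT and 1141 to 1248 in DKO libraries.

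The accessory proteins gave opposite signs near 0. Atp6ap1, an assembly factor with the higher level per length (630.4 ± 51.9 CPM per kilobase (SD, n = 5) in WT and 585 ± 45.9 (SD, n = 5) in DKO), was read at 1361, 1200.2, 1166, 1175 and 1306 CPM in WT 1 to WT 5 and 1096, 1043, 1226, 1214 and 1237 CPM in DKO 1 to DKO 5. The ranges overlapped and the difference was -0.09 (95% interval -0.27 to 0.09). Atp6ap2, the prorenin receptor, had 0.07 (95% interval -0.11 to 0.24).

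**Figure D5:**
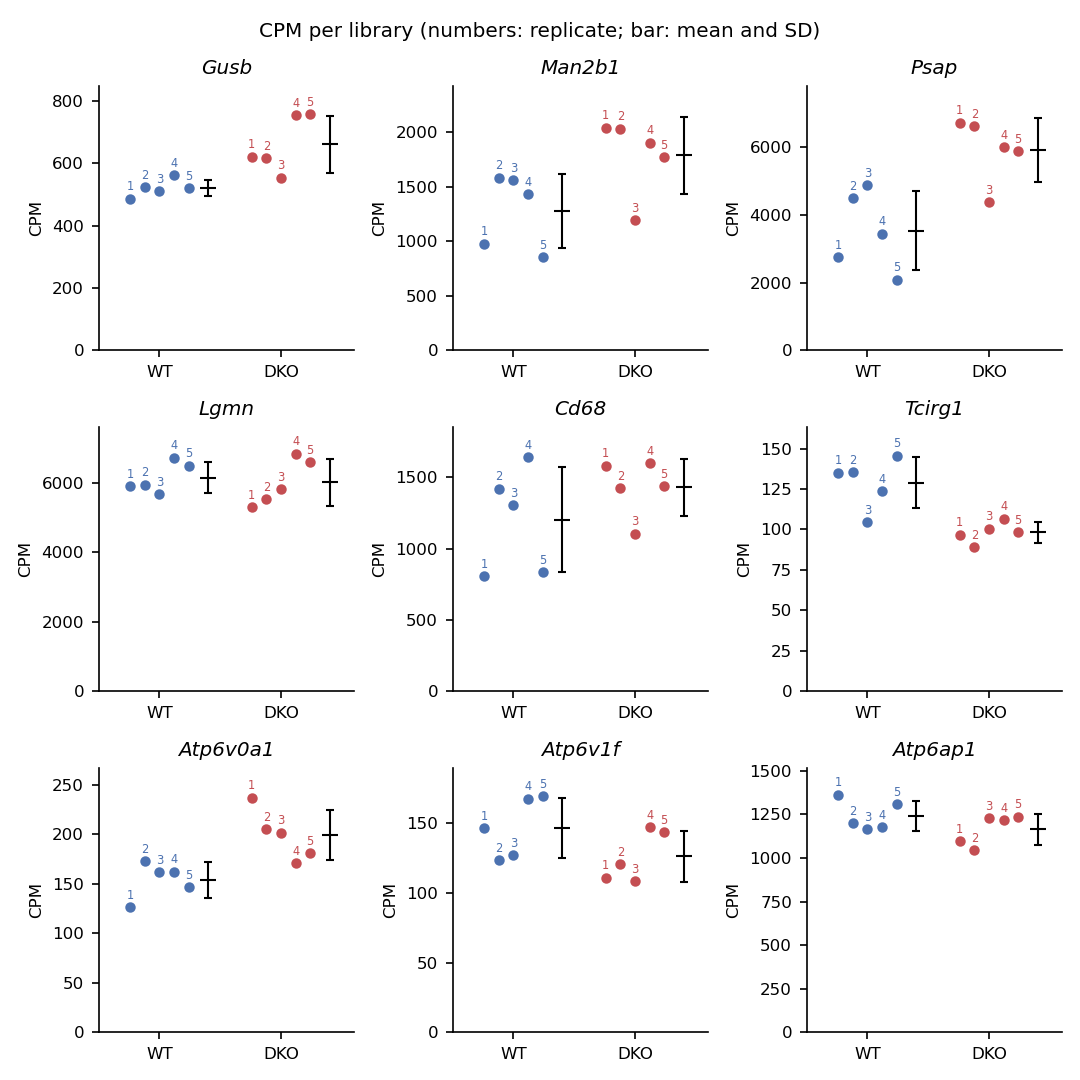
CPM of 9 members, with 1 point per library numbered by replicate and each genotype's mean and SD on axes that start at 0. Tcirg1 is lower in DKO libraries than in all WT libraries but WT 3, Psap and Man2b1 are lowest in WT 1, WT 5 and DKO 3 within their genotypes, and Lgmn, Cd68, Atp6v1f and Atp6ap1 overlap.

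Estimated transcript lengths, which can shift if a genotype uses isoforms of another length, overlapped between the genotypes for all 52 tested members, where 1.04% of all genes did not overlap. Isoforms of like length would not be seen in this way, and some members, such as Hexa (1996 bases) and Gm2a (4127 bases), had 1 length in every library. The overlap therefore does not show that isoform use was alike. Exons of 17 members overlap another annotated gene, mostly on the opposite strand, and the kit does not mark strand, so reads there cannot be told apart. Where the partner was appreciably expressed it was still below the member: Tmppe at 35.5 CPM beside Glb1 at 185, Rmc1 at 27.6 beside Npc1 at 137, and Cap1 at 96.7 beside Ppt1 at 712.

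Other lysosomal genes give the setting of these values, and the counts below stand against 4.34% of all genes tested called higher and 1.85% called lower with edgeR. Of 20 tested further hydrolases 4 were higher and 0 lower with edgeR (1 lower at an unadjusted p under 0.05, 1 with DESeq2 and 0 with limma voom), among them Arsg (0.86, adjusted p = 0.000555), Scpep1 (0.57, adjusted p = 0.0152) and Dpp7 (0.44, adjusted p = 0.0346). Of 11 tested genes that sort enzymes to lysosomes 3 were higher: Gnptab (1.84, adjusted p = 0.0197), which encodes the enzyme that makes the mannose 6-phosphate tag, Gga1 (0.62, adjusted p = 0.021) and Cln6 (1.61, adjusted p = 0.0403). Of 23 further membrane proteins 3 were higher: Slc15a4 (2.18, adjusted p = 0.0288), Pip4p1 (2.41, adjusted p = 0.0318) and Tpcn1 (0.42, adjusted p = 0.0404). None of the 23 was lower with edgeR (3 at an unadjusted p under 0.05, 1 with DESeq2 and 0 with limma voom). The genotypes overlapped for Slc15a4 (19.1 to 41.7 CPM in WT and 28.4 to 210 CPM in DKO) and Pip4p1 (9.33 to 63.1 CPM in WT and 50.7 to 187 CPM in DKO) and not for Tpcn1. Of 10 tested further ATPase subunits and assembly factors 1 was higher, Dmxl2 (0.77, adjusted p = 0.0296), of 11 cathepsins Ctsl (0.39, adjusted p = 0.0282), and of 12 autophagy genes Optn (1.27, adjusted p = 0.042). With edgeR at an unadjusted p under 0.05, 2 of these ATPase genes and 1 cathepsin were lower. Among 17 tested genes of the MiT/TFE factors and lysosomal nutrient signalling none passed with edgeR, 5 were higher and 1 lower at an unadjusted p under 0.05, and DESeq2 called 2 and limma voom 1 as higher. The most expressed of them were Flcn (-0.08) and Rptor (0.06), and Tfeb, named after its values were seen, was at 26.4 ± 11.4 CPM (SD, n = 5) in WT against 47.6 ± 5.02 CPM (SD, n = 5) in DKO microglia (edgeR log2 fold change 0.85 ± 0.24 SE, adjusted p = 0.0583). For Tfeb, WT 3 (45.5 CPM) lay within the DKO range (38.7 to 50.8 CPM) and the other WT libraries lay below it (16.5 to 27.6 CPM). Of 6 tested osteoclast genes none passed with edgeR, DESeq2 or limma voom, with 1 higher at an unadjusted p under 0.05, and the most expressed were Nfatc1 (0.27) and Clcn7 (-0.21).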

How the data were processed

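RNA of sorted microglia from WT and DKO mice was sequenced in 5 libraries each with an unstranded kit (TruSeq RNA v2). Per the submitters' processing notes, the tools were cutadapt 2.6, FastQC 0.11.8 and STAR 2.5.3a with mm10, while the sources used here do not name the software behind the gene values. The authors deposited per gene an estimated count, which is not normalized, a TPM, which has the same sum in every library, and the transcript length with its effective form.

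Estimated counts were rounded, filtered by filterByExpr (minimum count 10), scaled by TMM and fitted in R 4.3.3 by the quasi-likelihood functions glmQLFit and glmQLFTest of edgeR 4.0.16, with genotype as the only term. The Benjamini-Hochberg adjustment ran across the 13916 genes kept, and the threshold was 0.05. CPM use the same scaling, levels per length divide CPM by the effective length in kilobases, and spreads are SDs of 5 libraries. Total counts were 22483044 to 26109107 per library, and intervals are at 95%. The edgeR script was tested on simulated data.

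The members and lists were chosen with earlier results of these data known. Values in every library are given for members past the threshold and for the member with the highest level per length in each role group where none passed, and for others chosen after their values were seen. From other lists the text names members past the threshold, at most 4 by smallest p, or the 2 most expressed where none passed; 1 gene that this rule names is not reported here. Gene positions are from GENCODE M21 and promoter windows from RefSeq (GRCm38.p6). Alternatives used DESeq2 1.42.0, limma 3.58.1 and statmod 1.5.0.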

Additional observations from a re-analysis of the deposited data

Results flagged for a closer look

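In 6 of 108 sets of 5 libraries, 1 library lay far from the other 4 (a gap to its nearest neighbour of over 0.71 of the whole range, which chance gives in about 1 of 20 sets). WT 3 was high for Hgsnat (84.9 CPM, next 16.3, gap 0.871) and for Mcoln1 (62 CPM, next 19.3, gap 0.728). DKO 3 was low for Gm2a (263 CPM, next 395, gap 0.794) and for Npc2 (480.5 CPM, next 601, gap 0.806). Atp6v0d2 had counts in 1 library of each genotype, WT 4 and DKO 3 (0.0823 and 0.0429 CPM, gap 1 in both).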

How the results depend on the processing

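The count of members higher in DKO microglia, 0 with edgeR, was 1 with upper-quartile factors, 1 without a count filter, 4 with DESeq2, 3 with limma voom, 2 with quality weights, 3 with the replicate number as a random effect, 5 with a term for sets 1 to 3 and 4 to 5, and 2 on log2 TPM with 1 or 0.1 added. The count of lower members, 1 (Tcirg1), was 0 without a count filter, with effective length as an offset and without WT 1 and WT 5, and was 24 and 23 on log2 TPM with 1 and 0.1 added. Settings chosen after seeing the data gave 0 higher and 0 lower in sets 1 to 3 alone and in sets 4 to 5 alone, 1 higher and 0 lower without WT 1, WT 5 and DKO 3, and 2 higher and 1 lower on log2 TPM rescaled without Gm23935. Leaving out each library in turn gave 0 to 3 higher, with the 3 without WT 3, and 0 to 1 lower.

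The median log2 fold change of the members, 0.067, was -0.036 with upper-quartile factors (where that of all genes was -0.11), -0.30 on log2 TPM with 1 or 0.1 added and -0.01 in sets 1 to 3 alone, and ran from 0.048 to 0.087 without single libraries. The ratio of summed CPM, DKO over WT, was 1.12, 1.065 with library size only and 1.11 with RLE factors. Members that were called with the opposite sign were so only on log2 TPM: Hexa (-0.34 with 1 added and -0.34 with 0.1), Scarb2 (-0.34 and -0.35), Atp6v0c (-0.31 and -0.31), Atp6v0d1 (-0.32 and -0.33) and, with 1 added, Smpd1 (-0.28). None of these was called once TPM were rescaled without Gm23935.

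WT and DKO libraries share replicate numbers, but libraries of equal number did not deviate together in every case (correlations of -0.31 to 0.25, over 0.1 in 3 of 5). These 5 values cannot decide whether libraries of equal number were paired or handled together. With the replicate block 0 members were higher and 0 lower. Counts per library limit the 2 untested members, Acp5 and Atp6v0d2, and 5 tested members had intervals that reached beyond 2-fold.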
